A study of Drosophila melanogaster with 8 samples.

Results

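The steroid hormone ecdysone is made and read out by a cascade of genes, of which 10 were followed in adult *Drosophila* brains. These were the enzyme genes *sad* and *shd*, the receptor genes *EcR* and *usp*, and the response genes *br*, *Eip74EF*, *Eip75B*, *Eip78C*, *Eip93F* and *ftz-f1*. They were found by gene name among the 23932 features of the deposited count table, and all 10 were present and passed the minimum for testing. RNA came from brains of flies 0 to 1 day old, males and females of many flies pooled per sample, with 4 replicates per group. In EmcOE flies the driver *elavC155-Gal4* expressed a *UAS-emc* transgene, and in Control flies the same driver had been crossed to the *white\** line. Emc is an inhibitor that dimerizes with the transcription factor Daughterless (Da), and the comparison asks which brain transcripts differ when Da activity is held down in neurons. The paper adds that extra Emc could also bind partner transcription factors of Da in neurons, and so alter targets of Da paired with them. The driver is active in neurons from embryonic stages, most strongly in the mushroom bodies, while whole brains also hold glia and other cells. Since the parent line without the driver was not the same in both groups, effects of that line and of Emc cannot be told apart.

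Ecdysone is made from dietary sterol by a series of cytochrome P450 and other enzymes, most of them active in the larval prothoracic gland, and is converted to its active form in peripheral tissues. The active hormone binds EcR, a nuclear receptor that works as a heterodimer with Usp, the fly ortholog of the vertebrate retinoid X receptors. The receptor switches on early genes, many of them transcription factors, which in turn set the timing of later genes at molting and metamorphosis. In the fly brain the pathway is known for the pruning and death of larval neurons during metamorphosis, and in adults for roles in memory and sleep.

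In EmcOE brains 3 of the 10 genes rose and 0 fell. *sad* was 3.36-fold higher than in Control brains, whereas *br* and *Eip78C* were 25.2% and 23.0% higher. The other 7, the receptor genes among them, did not pass the thresholds. Of 59 further pathway genes tested, *nej* rose and *Mical*, *Sox14* and *hid* fell, which is 1.69% higher and 5.08% lower. The calls of *br*, *nej* and *Sox14* were each lost in 5 of the 8 models that left out 1 sample. Over all genes, 9788 features were tested, of which 3.57% were called higher and 5.12% lower in EmcOE brains, 8.68% in all (a call needed an adjusted p of 0.05 or less from edgeR's quasi-likelihood test and a log2 fold change of 0.2 or more in either direction). Of the calls, 41.1% were higher in EmcOE brains, and 60.3% when libraries were scaled by their total counts. The median log2 fold change of the 10 genes was 0.13, beside 0.01 over all features tested. All of the 10 but *sad*, *usp* and *shd* were among the features with the longest exons, whose median was 0.08. Values below are normalized counts, which are counts scaled to a common library size, unless another unit is named.

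**Figure D1:**
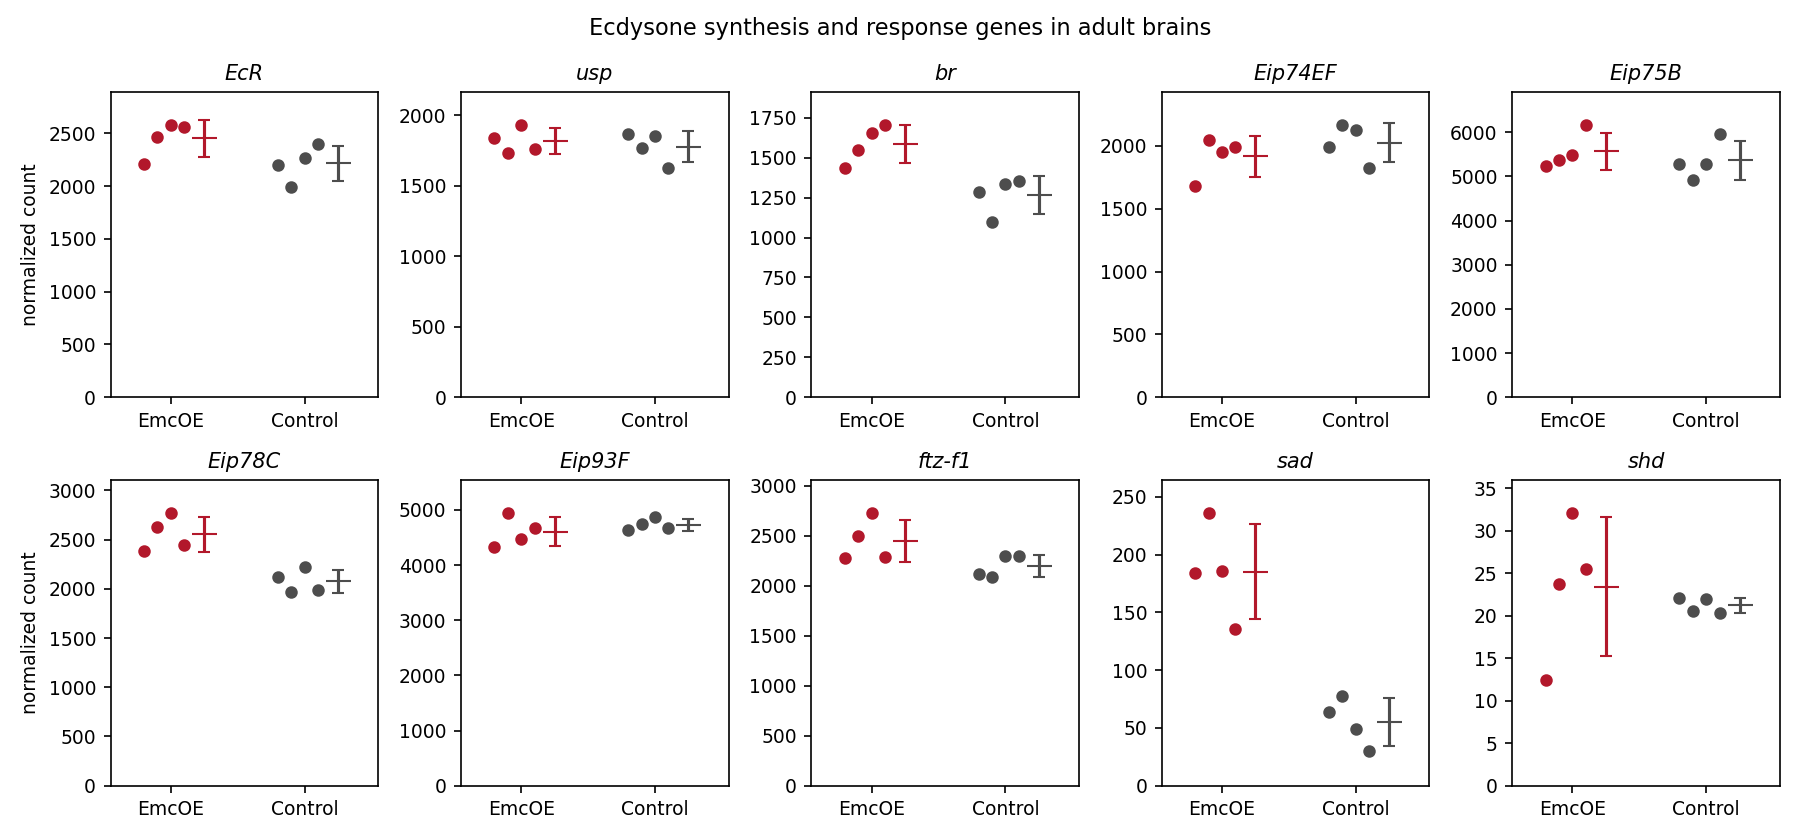
Normalized count (y axis, from 0) of each of the 10 genes in 4 EmcOE brain samples (red, left) and 4 Control samples (grey, right), 1 point per sample, with the mean and SD beside the points. Samples of the groups do not overlap for *sad*, *br* and *Eip78C*, and overlap for the other 7 genes.

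The total counts per library ranged from 20751513 to 41619980, with EmcOE replicate 1 the deepest. The targeted gene *emc* averaged 6038 ± 209 in EmcOE and 4966 ± 177 in Control brains (SD, n = 4; log2 fold change 0.29, edgeR adjusted p = 0.00246). *da* itself had a log2 fold change of 0.00 (edgeR adjusted p = 0.977). Of 6 neuron marker genes 0 were called, of 7 glial markers 1 was lower, of 4 tested hemocyte markers 2 were lower, and of 10 fat body markers 4 were higher. Of 7 photoreceptor, 6 muscle, 6 mushroom body and 5 immature neuron markers, 0 were called. All 7 photoreceptor and all 6 muscle markers nevertheless had log2 fold changes below 0, and all 5 immature neuron markers above 0. Values were also above 0 for 5 of the 6 neuron and 5 of the 6 mushroom body markers. In whole brains, fewer cells of a type and less RNA per cell cannot be told apart.

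*sad* (FBgn0003312; 3R, 11877235 to 11879754 of BDGP6.32, plus strand) encodes a mitochondrial cytochrome P450 that performs the last step before ecdysone. Its normalized counts were 184, 236, 185 and 135 in EmcOE replicates 1 to 4, against 64.0, 78.0, 48.8 and 29.95 in Control replicates 1 to 4. Every EmcOE sample lay above every Control sample, and the lowest EmcOE sample was well clear of the highest Control sample. The log2 fold change was 1.74 (standard error 0.26, 95% interval 1.17 to 2.31, edgeR adjusted p = 0.00239). The exact two-sided permutation test gave p = 0.0286, the smallest that 4 against 4 samples allow, and 8.60% of all tested features had EmcOE samples wholly above Control samples. *sad* was a modestly expressed gene, with 122 to 326 raw counts in EmcOE and 25 to 72 in Control libraries. The call held in all 8 models that left out 1 sample, with log2 fold changes from 1.53 to 1.95.

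The surroundings of *sad* were looked at because reads were counted without strand. Exons of another feature, *CG6962*, cover 2.99% of the exon bases of *sad*, and *CG6962* had a log2 fold change of 0.27 (edgeR adjusted p = 0.316). The nearest genes on either side, *CG6959* and *CG31368*, had log2 fold changes of 0.05 and 0.15 (edgeR adjusted p = 0.759 and 0.299). None of these 3 genes passed the thresholds.

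Some genes of the fat body, the storage and secretory tissue of the fly, also rose in EmcOE brains, with 4 of 10 markers called higher and 0 lower. *Fbp1*, which encodes a receptor for larval storage proteins, had 534, 638, 323 and 622 normalized counts in EmcOE brains, against 171, 204, 57.3 and 70.7 in Control brains (log2 fold change 2.06, edgeR adjusted p = 0.00604). *Fbp2* had a log2 fold change of 1.96 (edgeR adjusted p = 0.00567). The larval serum protein gene *Lsp1beta* had 1.49 (edgeR adjusted p = 0.00567) and the odorant-binding protein gene *Obp99b* had 1.64 (edgeR adjusted p = 0.00160). The 4 genes, like *sad*, had no overlap between the groups. *Lsp2*, another larval serum protein gene, had 262 to 672 in EmcOE and 97.5 to 296 in Control brains (log2 fold change 1.10, edgeR adjusted p = 0.0793).

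Not all fat body genes shared this pattern. The yolk protein genes *Yp1* and *Yp2* had log2 fold changes of 0.03 and 0.02, the lipoprotein gene *apolpp* had -0.10 and the fatty acid synthase gene *FASN1* had -0.26, all short of the thresholds. The summed normalized count of the 10 markers was 76171 to 127008 in EmcOE and 53936 to 148449 in Control samples, so the groups overlapped, and no marker was at 0. *Fbp1* and *Lsp2*, with the counts given above, were a small part of this sum, which therefore says little about them. The part of fat body RNA in the *sad* result was not tested. Over the 8 samples, the tested features most like *sad* were *CG12896*, *Lsp1beta* and the cuticle gene *TwdlT*. Their Euclidean distances were 0.539, 0.812 and 0.836 between centered log2 normalized counts. Centering was over all 8 samples, so these distances include the difference between the groups. Features with a fold change near that of *sad* are near by construction (here log2 fold changes of 1.73, 1.49 and 1.39). Likeness within the groups was not tested.

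**Figure D2:**
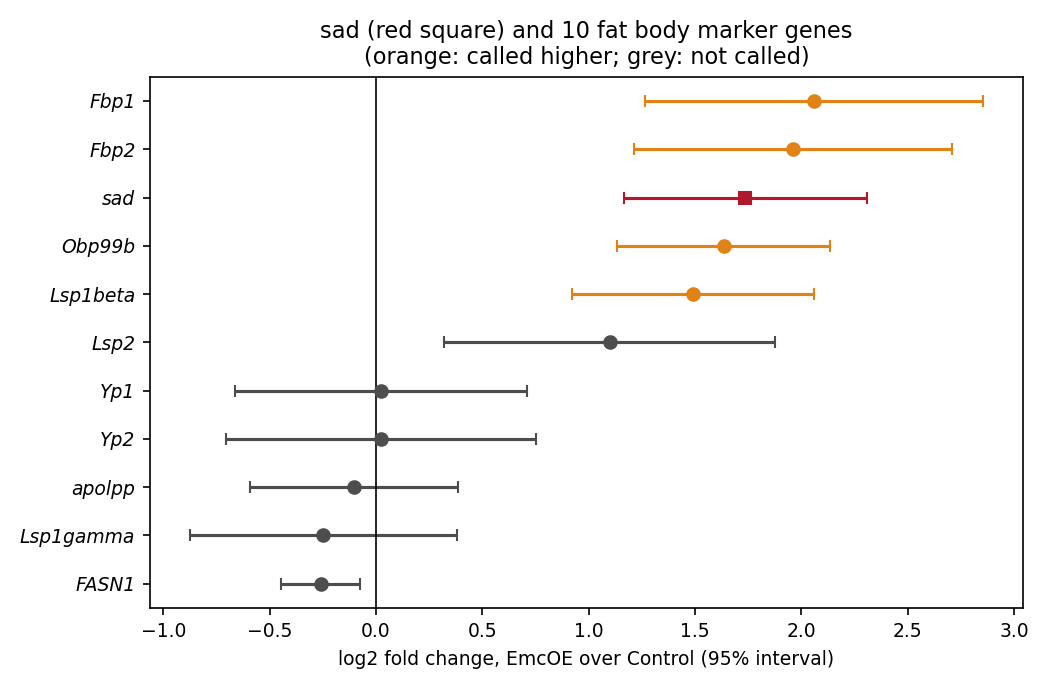
Log2 fold change of EmcOE over Control (x axis) with its 95% interval for *sad* (red square) and 10 fat body marker genes (orange where called higher, grey where not called). *Fbp1*, *Fbp2*, *Obp99b* and *Lsp1beta* lie between 1.49 and 2.06, the same range as *sad* at 1.74, while *Yp1*, *Yp2* and *apolpp* lie between -0.10 and 0.03 and *Lsp1gamma* and *FASN1* at -0.25 and -0.26.

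*shd* (FBgn0003388; 3L, 14614458 to 14622205, plus strand) encodes the P450 that turns ecdysone into the active hormone. It was near the limit of the test, with 12.4, 23.7, 32.1 and 25.5 normalized counts in EmcOE brains, against 22.1, 20.6, 21.9 and 20.4 in Control brains. The EmcOE samples lay on both sides of the tightly grouped Control samples. Its log2 fold change was 0.11 with a 95% interval from -0.58 to 0.81 (edgeR adjusted p = 0.861), so these counts do not exclude changes within that interval.

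The rest of the synthesis pathway was low or did not pass the thresholds. Of 18 further genes listed for synthesis and its control, 17 were in the table and 8 passed the minimum for testing, of which 0 were called in either direction (median log2 fold change -0.03, range -0.52 to 0.30). The P450 genes *spo* and *dib* had 0 counts in all 8 libraries. *phm*, which acts just before *dib*, had 11 to 17 raw counts in EmcOE and 4 to 18 in Control libraries. *nvd*, the enzyme gene at the start of the pathway, had 0 to 13 in EmcOE and 2 to 13 in Control libraries. Not all genes of the earlier steps were this low, since the P450 gene *Cyp6t3* had 89.8 to 113 normalized counts in EmcOE and 87.1 to 128 in Control brains (log2 fold change -0.11, edgeR adjusted p = 0.672). The ring gland and its neighboring corpora had 2 of 5 markers tested and 0 called, with a summed normalized count of 389 to 1057 in EmcOE and 512 to 893 in Control samples. *phm*, *dib* and *nvd* are among these markers and had the low counts given above, so nearly all of the sum came from the other markers. Of 5 genes for uptake, release and inactivation of the hormone, 4 were tested and 0 were called (range -0.30 to 0.13).

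The receptor genes did not pass the thresholds. *EcR* (FBgn0000546; 2R, 6087873 to 6169087, minus strand) had 2205, 2461, 2582 and 2558 normalized counts in EmcOE brains, against 2198, 1994, 2265 and 2399.9 in Control brains. EmcOE replicates 2, 3 and 4 stood above all Control samples, but EmcOE replicate 1 lay among them. edgeR gave a log2 fold change of 0.15 (95% interval -0.0038 to 0.31, edgeR adjusted p = 0.206; exact two-sided permutation test, p = 0.114). *EcR* has 6 annotated transcripts in BDGP6.54, the later annotation used here for transcripts. They were counted as 1 gene, so its isoforms, which differ in their roles in neurons, cannot be told apart.

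*usp* (FBgn0003964; X, 2038798 to 2042311, minus strand) had 1842, 1736, 1934 and 1762 normalized counts in EmcOE brains, against 1865, 1767, 1856 and 1629 in Control brains. The groups lay on top of each other. The log2 fold change was 0.04 (95% interval -0.09 to 0.17, edgeR adjusted p = 0.748), and other features cover 8.72% of its exon bases. On a per-length scale *usp* was the most abundant of the 10 genes. It had 24.6 ± 1.21 CPM (counts scaled to library size) per kilobase of exon in EmcOE and 24.1 ± 1.48 in Control brains (SD, n = 4). Its partner *EcR* had 10.2 ± 0.714 in EmcOE and 9.18 ± 0.701 in Control brains. The ranking depends on this scale, which divides by all annotated exon bases, 3038 for *usp* and 13451 for *Eip75B*. In mean normalized counts of EmcOE brains, *Eip75B* was higher, at 5567 against 1818 for *usp*.

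Among the response genes, *br* and *Eip78C* rose. *br* (FBgn0283451; X, 1575132 to 1664869, plus strand) encodes the Broad family of zinc finger proteins, which mark the pupal state in metamorphosis. It had 1436, 1550.0, 1654 and 1707 normalized counts in EmcOE brains, against 1287, 1096, 1334 and 1353 in Control brains. All EmcOE samples lay above all Control samples, by a narrow gap between EmcOE replicate 1 and Control replicate 4. Its log2 fold change was 0.33 (standard error 0.079, 95% interval 0.15 to 0.50, edgeR adjusted p = 0.0275; exact two-sided permutation test, p = 0.0286). *br* did not pass the thresholds in 5 of the 8 models that left out 1 sample (edgeR adjusted p from 0.0602 to 0.0760 without EmcOE replicate 2, 3 or 4 or Control replicate 1 or 2).

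The 5 immature neuron markers, none of them called, were at a median of 0.17 on the log2 fold change scale and summed to 18585 to 21698 in EmcOE and 15779 to 18584 in Control samples, ranges that nearly touched but did not overlap. The 6 neuron markers, also uncalled, had a median of 0.19, with 5 above 0 and 1 below. For the 6 mushroom body markers the median was 0.08, with 5 above 0 and 1 below. The part of immature or other neurons in the *br* result was not tested.

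*br* is a long gene, with 19777 bases of exon and 16 annotated transcripts, and long genes were higher in EmcOE brains on the whole. When tested features were split into 5 classes by exon length, the median log2 fold change was 0.08 in the longest class (4265 bases and above) and -0.01 in the shortest. After each sample's trend with exon length was removed, the log2 fold change of *br* was 0.19 (edgeR adjusted p = 0.0347), which no longer reached the fold threshold. Apart from *sad*, *usp* and *shd*, the 10 genes all belong to that longest class.

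*Eip78C* (FBgn0004865; 3L, 21226609 to 21266503, plus strand) encodes a nuclear receptor related to E75. It had 2382, 2627, 2768 and 2440.1 normalized counts in EmcOE brains, against 2119.5, 1969, 2224 and 1993 in Control brains. The groups did not overlap, and the spread within each was smaller than the difference between them. edgeR gave a log2 fold change of 0.30 (standard error 0.064, 95% interval 0.16 to 0.44, edgeR adjusted p = 0.0152; exact two-sided permutation test, p = 0.0286). The call held in all 8 models that left out 1 sample (log2 fold change 0.26 to 0.34) and after the correction for exon length (0.24, edgeR adjusted p = 0.0127). No other feature shares its exon bases.

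*Eip75B* (FBgn0000568; 3L, 17950953 to 18064696, minus strand) encodes the heme-binding nuclear receptor E75 and was also well expressed, at 5239, 5375, 5482 and 6173 normalized counts in EmcOE brains, against 5284, 4926, 5286 and 5968 in Control brains. Replicate 4 was the highest in both groups, and the groups overlapped. The log2 fold change was 0.06 (95% interval -0.10 to 0.21, edgeR adjusted p = 0.647), and -0.06 after the correction for exon length. The relatives *Eip75B* and *Eip78C* thus fell on different sides of the thresholds, and the difference between their changes was not tested.

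*ftz-f1* (FBgn0001078; 3L, 18750607 to 18801309, minus strand) encodes a nuclear receptor that makes tissues competent to respond to the next hormone pulse. It had 2279.6, 2495, 2725 and 2289 normalized counts in EmcOE brains, against 2121, 2090.3, 2299 and 2292 in Control brains. EmcOE replicates 2 and 3 stood above all Control samples, and EmcOE replicates 1 and 4 did not. Its log2 fold change was 0.16 (95% interval 0.01 to 0.31, edgeR adjusted p = 0.171). Exons of *lncRNA:CR45939* cover 29.4% of its exon bases. Unstranded reads on the shared bases do not tell which gene they came from, and whether they entered its count was not tested.

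The remaining early genes lay slightly below their Control means. *Eip74EF* (FBgn0000567; 3L, 17558672 to 17619325, minus strand), an ETS-domain transcription factor gene, had 1677, 2050.1, 1950.2 and 1993 normalized counts in EmcOE brains, against 1989, 2169, 2129 and 1821 in Control brains. *Eip93F* (FBgn0264490; 3R, 21949114 to 22014539, plus strand), whose product specifies the adult state in metamorphosis, had 4331, 4942, 4474 and 4675 in EmcOE brains, against 4632, 4741, 4869 and 4673 in Control brains. Both genes overlapped between the groups. The log2 fold change of *Eip74EF* was -0.08 (95% interval -0.25 to 0.10, edgeR adjusted p = 0.582) and that of *Eip93F* was -0.03 (95% interval -0.15 to 0.08, edgeR adjusted p = 0.721). Per kilobase of exon, the pupal marker *br* was at 3.30 ± 0.250 CPM in EmcOE and 2.64 ± 0.245 in Control brains. This was well below the adult specifier *Eip93F* at 14.9 ± 0.860 in EmcOE and 15.3 ± 0.338 in Control brains (SD, n = 4). These values depend on the annotated exon bases, 19777 for *br* and 12686 for *Eip93F*.

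**Figure D3:**
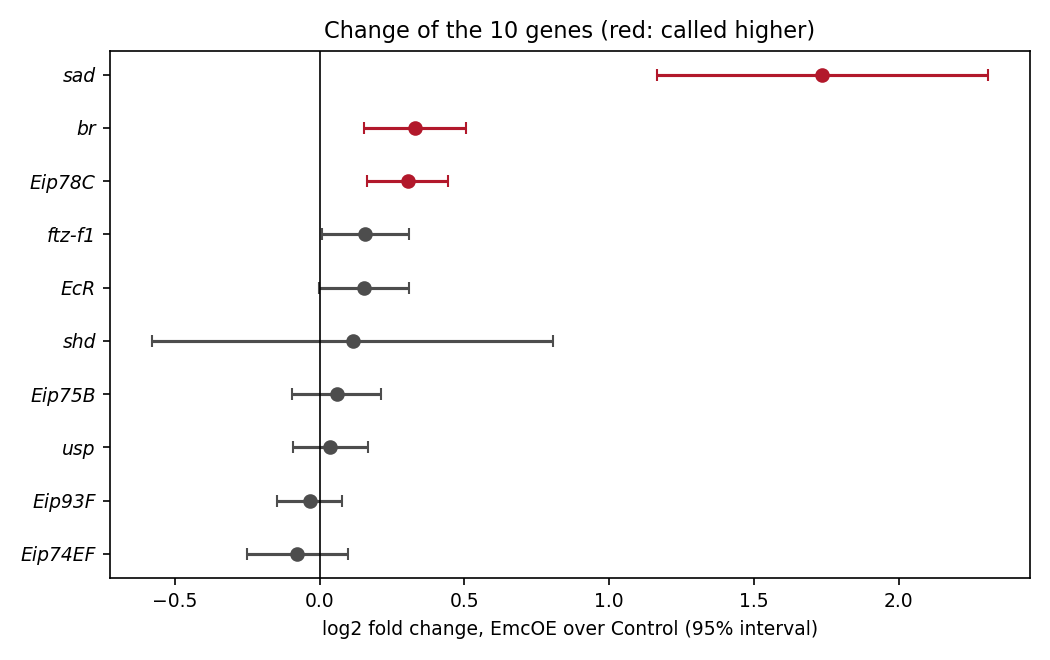
Log2 fold change of EmcOE over Control (x axis) with its 95% interval for the 10 genes, red where called higher and grey where not called. *sad* stands apart at 1.74, *br* and *Eip78C* lie at 0.33 and 0.30, and the other 7 genes lie between -0.08 and 0.16.

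The wider pathway was described with 6 lists of 90 further genes, of which 88 were in the table and 59 were tested. Of these 59 genes 1 was higher and 3 were lower in EmcOE brains, beside 3.57% and 5.12% of all features, and their median log2 fold change was 0.02. By list, 0 of 8 tested synthesis genes, 0 of 4 genes for uptake and inactivation, 0 of 13 other nuclear receptor genes and 0 of 6 juvenile hormone genes were called. Of 11 tested cofactor genes of the receptor 1 was higher and 0 were lower, with a median of 0.12. Of 17 tested response genes 0 were higher and 3 were lower, with a median of -0.09 and a range of -0.59 to 0.55.

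**Figure D4:**
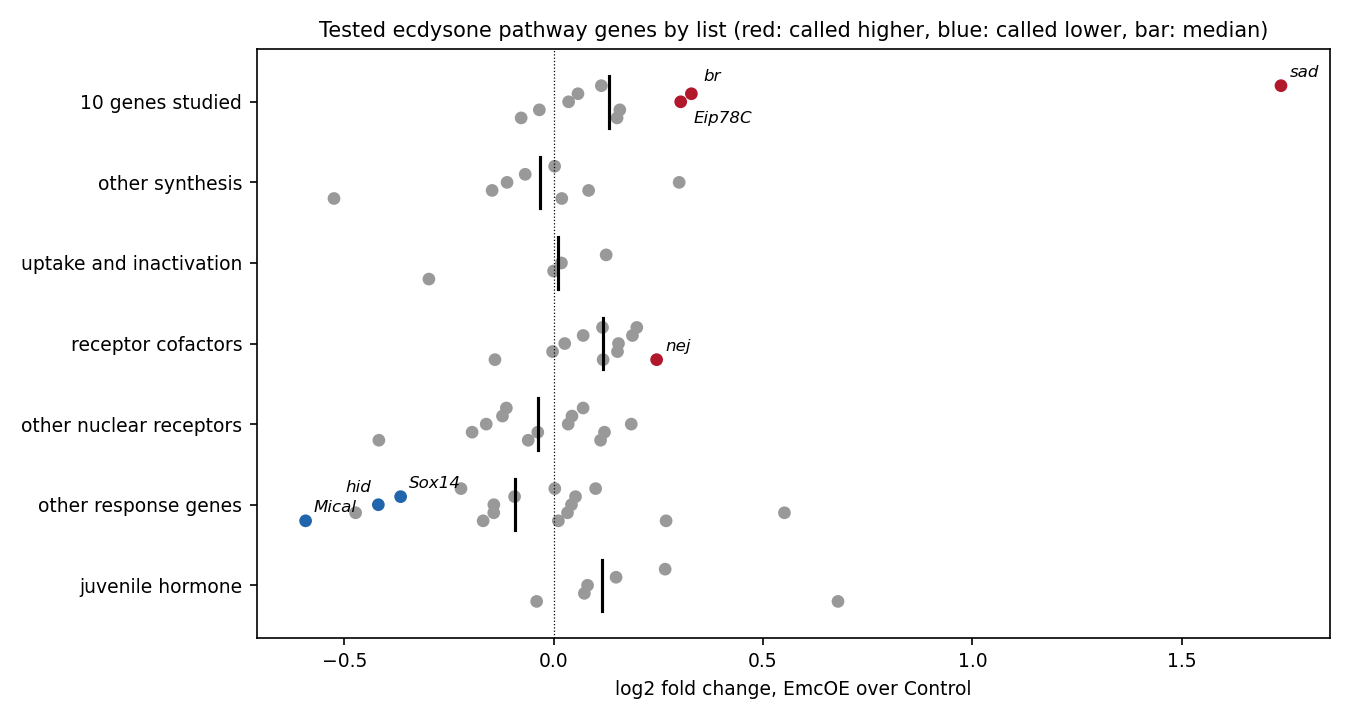
Log2 fold change of EmcOE over Control (x axis) for the 10 genes and 6 further lists (y axis), 1 point per tested gene, red where called higher, blue where called lower and grey where not called, with a bar at each list's median. *Mical*, *hid* and *Sox14* lie at -0.59, -0.42 and -0.37, and *nej* at 0.25.

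The largest decrease among the 59 genes was that of *Mical* (FBgn0053208; 3R, 10001554 to 10042895), the gene for an enzyme that takes apart actin filaments in growing and pruning neurites. It had 8738, 9346, 9884 and 9348 normalized counts in EmcOE brains, against 14582, 15060.0, 14391 and 12394 in Control brains. Each EmcOE sample was far below each Control sample. edgeR gave a log2 fold change of -0.59 (standard error 0.071, edgeR adjusted p = 0.000635), and it was between -0.65 and -0.55 in the 8 models that left out 1 sample, all of which called it.

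*Sox14* (FBgn0005612; 2R, 23978801 to 23985177) encodes the transcription factor through which the ecdysone receptor induces *Mical* in pruning sensory neurons. It had 1346, 1548, 1494 and 1574 normalized counts in EmcOE brains, against 1821, 2179, 2051 and 1640.3 in Control brains. The groups did not overlap, although Control replicate 4, also the lowest Control sample for *Mical*, came near the EmcOE samples. The log2 fold change was -0.37 (standard error 0.091, edgeR adjusted p = 0.0318). It was not called in 5 of the 8 models that left out 1 sample (without EmcOE replicate 1 or 3 or Control replicate 1, 2 or 3), with log2 fold changes from -0.44 to -0.30, nor with libraries scaled by total counts (edgeR adjusted p = 0.0781).

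*hid* (FBgn0003997; 3L, 18167745 to 18185641), a cell death gene that ecdysone induces in doomed larval tissue, had 339.8, 314, 276 and 289 normalized counts in EmcOE brains, against 437, 430.2, 409.6 and 358 in Control brains. No EmcOE sample reached the Control range. Its log2 fold change was -0.42 (standard error 0.090, edgeR adjusted p = 0.0169). *hid* was not called without Control replicate 1 or Control replicate 2 (edgeR adjusted p = 0.0509 and 0.0541) or with total counts (0.0648). Of the other cell death genes in the list, *rpr* had a log2 fold change of -0.47 (edgeR adjusted p = 0.295) and the caspase gene *Dronc* had -0.22 (edgeR adjusted p = 0.148), and neither was called.

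Markers of other cells stood beside these 3 genes as follows. The summed normalized count of 7 glial markers was 70675 to 79557 in EmcOE and 84345 to 88687 in Control samples, without overlap. *Gs2* was the 1 glial marker called lower and the most abundant of them, while 3 of the 7 had log2 fold changes above 0 and the median was -0.06. The 5 hemocyte markers summed to 5818 to 6491 in EmcOE and 6101 to 6736 in Control samples, with *Hml* and *NimC1* called lower. The 6 muscle markers, with log2 fold changes from -1.37 to -0.17 (median -0.33), summed to 18199 to 29414 in EmcOE and 22999.8 to 36354 in Control samples, with overlap. The 6 neuron markers summed to 131514 to 145142 in EmcOE and 123027 to 139019 in Control samples, and the groups overlapped. The part of these cells in the lower *Mical*, *Sox14* and *hid* levels was not tested.

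*nej* (FBgn0261617; X, 9665442 to 9687066), the gene for the histone acetyltransferase CBP, was the cofactor that rose. It had 3311, 3626, 3782 and 3766 normalized counts in EmcOE brains, against 2914, 2926, 3208 and 3209 in Control brains. The groups did not overlap, and the log2 fold change was 0.25 (standard error 0.060, edgeR adjusted p = 0.0290). With 15932 bases of exon it is also among the longest genes. Its log2 fold change was 0.11 after the correction for exon length, below the fold threshold, and 5 of the 8 models that left out 1 sample did not call it (without EmcOE replicate 2, 3 or 4 or Control replicate 1 or 2).

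**Figure D5:**
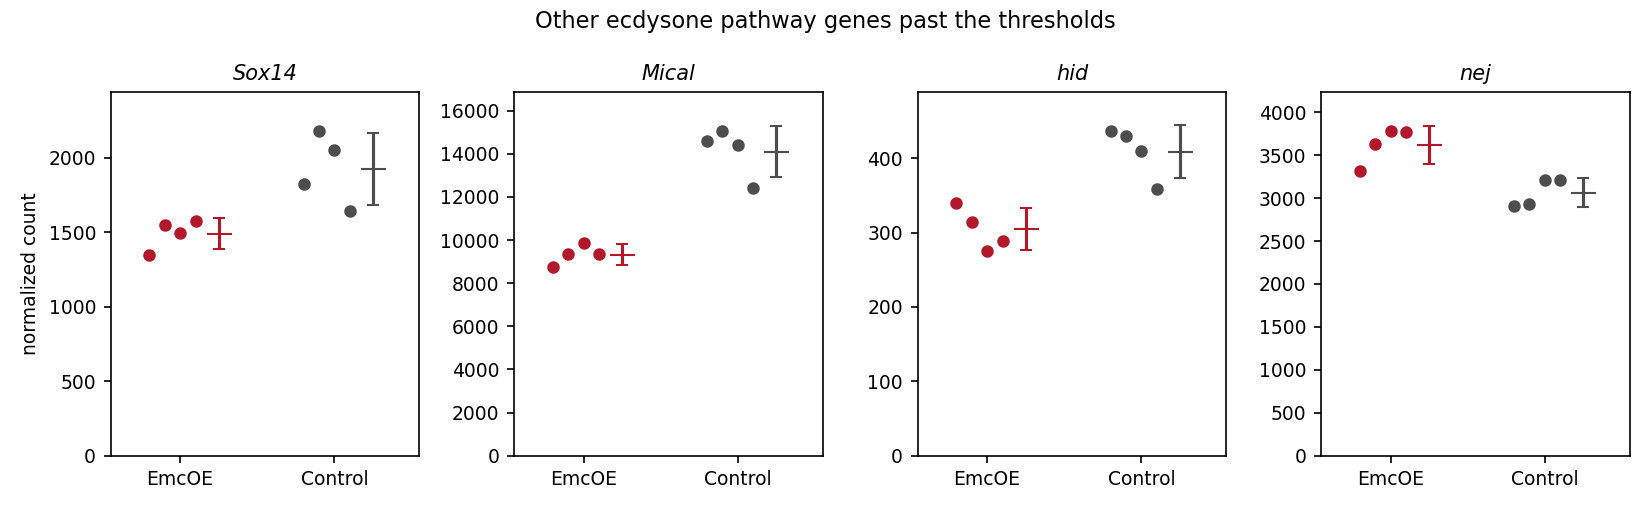
Normalized count (y axis, from 0) of *Sox14*, *Mical*, *hid* and *nej* in 4 EmcOE samples (red, left) and 4 Control samples (grey, right), 1 point per sample, with the mean and SD beside the points. All EmcOE samples lie below all Control samples for *Sox14*, *Mical* and *hid*, and above them for *nej*.

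Non-overlap of the groups was common in this table, at 8.26% of tested features for EmcOE below Control and 8.60% for EmcOE above Control. Of the 10 ecdysone genes, 3 had EmcOE samples wholly above Control samples and 0 wholly below, while the 59 further pathway genes tested gave 2 above (3.39%) and 6 below (10.2%).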

How the data were processed

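RNA from dissected brains of both sexes was sequenced as unstranded poly(A) libraries. Reads were trimmed (BBDuk), aligned to BDGP6.32 (STAR 2.7.4a) and assigned to genes (featureCounts 2.0.1) by the authors, who deposited raw counts. Groups and replicate numbers come from the labels. No source used here says how replicates were spread over crosses or days. The p-values set the group difference against the spread between these samples, which may not include the spread between crosses or days.

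The analysis used R 4.3.3, edgeR 4.0.16 and, as an alternative, DESeq2 1.42.0. To normalize, counts were scaled by TMM effective library sizes to their mean. Features with a mean of at least 20 in either group entered edgeR's quasi-likelihood test, with Benjamini-Hochberg adjustment over all of them. Intervals (95%) are not adjusted for the number of features, and standard errors were derived from the F statistic. Single genes were also compared by exact permutation over 70 assignments of log2 normalized counts (pseudocount 0.5). Replicates differed by at least 13.3 times what sampling alone gives (chi-square over its degrees of freedom). The scripts were tested on simulated data, where 55 of 99 features with a true log2 change of 0.5 in size were called in the right direction. With a change of 1, 90 of 100 were, and there were 6 false calls among 9660 features. Smaller changes were not simulated. Alternatives were other scalings, filters and tools, a replicate block, each sample left out in turn and, chosen after seeing the data, a correction for exon length (lowess, span 0.3).

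The genes and lists were chosen with earlier results of these data known. All 10 genes are named. Genes of other lists are named where called, or where a synthesis enzyme had at most 3 counts in every library, and the 3 features nearest to *sad* are named as most alike. The uncalled fat body markers, *rpr*, *Dronc*, *Cyp6t3*, *phm*, *nvd*, neighboring genes and the genes under other observations were picked with their values in view. *nobo* and *Eip71CD* matched no gene name and were not analysed here. Sequences were not used here.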

Additional observations from a re-analysis of the deposited data

How the results depend on the processing

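*sad* and *Eip78C* were called in the 10 other settings and in all 8 models that left out 1 sample. The setting without a fold threshold reuses the main fit, so there the calls hold by construction. Without 1 sample *sad* had log2 fold changes of 1.53 to 1.95 and *Eip78C* of 0.26 to 0.34. *br* had 0.26 to 0.38 without 1 sample and was not called in 5 of the 8 (edgeR adjusted p from 0.0602 to 0.0760 in those 5, and from 0.0132 in all 8), nor after the exon length correction (0.19). That correction, chosen after seeing the data, also gave *Eip75B* a log2 fold change of -0.062 and left 0 pathway list genes higher. With total counts *Eip93F* was at 0.030, 1 pathway list gene was lower, and 272 features were lower and 413 higher, against 501 and 349 as reported. Without 1 sample, *usp* ranged from -0.0089 to 0.061 (-0.0018 without EmcOE replicate 3), *Eip93F* from -0.077 to 0.0021 and *shd* from -0.096 to 0.37, all short of the thresholds. Pathway list genes called without 1 sample were 0 to 2 higher and 1 to 4 lower, and features 204 (without Control replicate 2) to 465 (without EmcOE replicate 1) higher and 323 (without Control replicate 2) to 513 lower. Same-numbered samples share a column letter in the deposited table, but the labels do not say what it marks. Their deviations from the group means correlated at -0.49, 0.15, 0.03 and -0.21, and they were not treated as pairs. With a replicate block, 326 features were higher and 487 lower, and *br* (0.33), *Eip78C* (0.30) and *sad* (1.78, standard error 0.15 against 0.26 without the block) were called. DESeq2 called 400 higher and 661 lower. The cause of these shifts was not tested. *shd* rested on 17 to 32 raw counts per library.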

Other observations

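Of the 59 further pathway genes tested, 4 had groups that did not overlap without passing the thresholds, and they were picked out after their values were seen. Over all tested features, 16.9% had groups that did not overlap in either direction and 8.68% were called. Uncalled features without overlap were therefore common, and the 4 genes do not set the pathway apart. *Cyp18a1*, whose product inactivates the hormone, had 283, 282, 276 and 296 normalized counts in EmcOE brains, against 394, 350.0, 296 and 359 in Control brains (log2 fold change -0.30, edgeR adjusted p = 0.0679). EmcOE replicate 4 and Control replicate 3 nearly met. *Start1*, a cholesterol transport gene linked to steroid synthesis, had 842 to 914 in EmcOE and 944 to 1025 in Control brains (log2 fold change -0.15, edgeR adjusted p = 0.120). *Nurf-38*, a chromatin remodeling subunit gene, had 2031 to 2259.9 in EmcOE and 2263 to 2481 in Control brains (log2 fold change -0.14, edgeR adjusted p = 0.0837). *Met*, a juvenile hormone receptor gene, had 1196 to 1338 in EmcOE and 1094 to 1166 in Control brains (log2 fold change 0.15, edgeR adjusted p = 0.105).

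The gene nearest to *Eip78C* on the left, *CG43219*, lies 3491 bases away and was also called higher, with mean normalized counts of 349 in EmcOE and 247 in Control brains (log2 fold change 0.50, edgeR adjusted p = 0.0249). The gene nearest on the right, *CG9391*, lies 177 bases away and had a log2 fold change of -0.02 (edgeR adjusted p = 0.837). These neighbors were looked at after the values of *Eip78C* were seen.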
